A study of Mus musculus with 16 samples.

Results

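The genes described here were 32 markers of the cells of the brain vessel wall: 22 of endothelial cells and 10 of mural cells, the pericytes and smooth muscle cells that wrap the endothelium. They were chosen by name as known markers, but with earlier results of these data known. All 32 were among the 24060 gene labels of each expression table. Each of 4 adult mice, numbered 970, 971, 974 and 977 and taken on postnatal day 63, gave a hippocampus and a striatum, and each tissue gave 2 RNA libraries. The first library of each pair, the input, was total RNA of the cleared lysate and served as the control, and the second was RNA pulled down through a hemagglutinin (HA) tag on ribosomes (the immunoprecipitate, IP). The 4 groups, hippocampal input, hippocampal IP, striatal input and striatal IP, therefore held 4 libraries each, 16 in all, from the same 4 animals. All animals carried 1 copy of Aldh1l1-creERT2 and 1 copy of Ribotag, on an FVB background crossed to C57/Bl6N for 3 generations, so the inputs came from the same genotype as the IPs. Both sexes were used, and the labels do not tie a sex to an animal. Aldh1l1 marks astrocytes: its promoter drives the inducible recombinase, which switches on the tagged ribosomal protein Rpl22 in cells where it acts. The dose and time of the inducing drug are not given in the sources used here.

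Endothelial cells line brain capillaries and form the blood-brain barrier with tight junctions, selective transporters and a low rate of vesicle transport. Pericytes sit in the capillary basement membrane and depend on PDGF-B from the endothelium acting on their receptor Pdgfrb, and smooth muscle cells contract around arterioles. Astrocyte endfeet cover nearly the whole vessel, so that vessel RNA and astrocyte RNA come from closely apposed cells.

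The 250 bases before the transcription start of 4 endothelial and 2 mural members are shown first, because they are the regulatory sequence nearest to genes whose levels are given below. They were taken from RefSeq on GRCm38.p6 and are printed 5′ to 3′ on the gene's own strand, and capitals mark the letters CAGGAAG or their reverse complement CTTCCTG, a core bound by ETS factors, which are known regulators of endothelial genes. Egfl7, Emcn, Itm2a and Cd34 hold these letters. Rgs5 and Vtn, the mural members with the highest input levels, do not. The 4 endothelial members shown are among the 5 of 14 whose windows hold the letters. No endothelial window without them is printed, so the contrast between the windows shown does not describe the classes.
Egfl7, chr2:26580833-26581082, plus strand: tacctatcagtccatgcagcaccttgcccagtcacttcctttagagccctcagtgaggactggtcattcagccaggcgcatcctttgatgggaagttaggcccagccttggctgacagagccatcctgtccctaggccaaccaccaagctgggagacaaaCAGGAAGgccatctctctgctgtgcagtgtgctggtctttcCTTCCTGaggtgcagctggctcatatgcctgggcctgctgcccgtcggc
Emcn, chr3:137340828-137341077, plus strand: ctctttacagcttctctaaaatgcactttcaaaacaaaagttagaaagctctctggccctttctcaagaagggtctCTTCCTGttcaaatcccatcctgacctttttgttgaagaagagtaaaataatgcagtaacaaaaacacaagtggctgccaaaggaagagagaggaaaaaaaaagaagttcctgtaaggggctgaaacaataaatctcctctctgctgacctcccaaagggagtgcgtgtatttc
Itm2a, chrX:107403361-107403610, minus strand: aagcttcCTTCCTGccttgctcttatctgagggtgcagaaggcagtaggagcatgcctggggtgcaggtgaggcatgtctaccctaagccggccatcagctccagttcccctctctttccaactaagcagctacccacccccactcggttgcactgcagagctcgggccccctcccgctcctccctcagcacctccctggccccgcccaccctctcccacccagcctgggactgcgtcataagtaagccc
Cd34, chr1:194938571-194938820, plus strand: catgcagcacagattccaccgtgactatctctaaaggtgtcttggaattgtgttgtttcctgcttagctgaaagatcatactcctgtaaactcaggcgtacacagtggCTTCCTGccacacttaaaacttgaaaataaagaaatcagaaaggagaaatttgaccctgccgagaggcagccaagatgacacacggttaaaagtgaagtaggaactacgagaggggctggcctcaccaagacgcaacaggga
Rgs5, chr1:169655251-169655500, plus strand: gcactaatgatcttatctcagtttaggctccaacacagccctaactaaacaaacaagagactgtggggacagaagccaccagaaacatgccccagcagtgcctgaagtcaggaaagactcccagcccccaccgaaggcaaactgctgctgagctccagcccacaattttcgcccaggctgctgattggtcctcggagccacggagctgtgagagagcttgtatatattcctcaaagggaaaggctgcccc
Vtn, chr11:78498870-78499119, plus strand: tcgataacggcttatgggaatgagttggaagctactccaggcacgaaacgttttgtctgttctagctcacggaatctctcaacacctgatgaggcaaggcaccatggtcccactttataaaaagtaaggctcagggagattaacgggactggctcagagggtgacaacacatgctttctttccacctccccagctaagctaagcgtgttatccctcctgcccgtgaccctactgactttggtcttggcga

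The letters CAGGAAG, on either strand, were present in the same window of 5 of the 14 endothelial members that the RefSeq table holds and in none of the 6 mural ones, against 10.8% of 32851 promoters. The letters AACAAT, part of the core bound by SOX factors, were present in 4 of the 14 endothelial and none of the 6 mural windows, against 9.42% of all promoters. The CArG box, the site of serum response factor in smooth muscle genes, was searched only as CC, then 6 letters A or T, then GG. These letters were found in none of these windows and in 1.47% of all promoters. Sites with other letters were not searched, and Tagln and Myh11 had no window. The letters TATAAA were present in 3 of the 14 and 1 of the 6 windows, the latter that of Vtn, against 12.4% of all promoters. All motifs were searched on both strands. A member was counted if the window of any of its start sites matched, while the background counts single promoters. Egfl7, Ly6c1 and Ctla2a have more than 1 window, which gives them more room for a match, so the shares are not strictly alike. A match describes letters in this window and not a bound site, and no binding was measured.

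The deposited values were taken as FPKM (fragments per kilobase of transcript, corrected for sequencing depth). Each library was divided by a scaling factor of 0.746 to 1.3 that sets libraries on a common level. The resulting values are called scaled FPKM. The depth estimated from the FPKM steps was 8950000 to 12150000 fragments in the hippocampal inputs, 18760000 to 22420000 in the hippocampal IPs, 4120000 to 8900000 in the striatal inputs and 13850000 to 21600000 in the striatal IPs. The striatal inputs of animals 974 (4120000) and 971 (5750000) were the shallowest, and the striatal calls are also given without them. Differences are log2 fold changes of scaled FPKM + 1 with a standard error from the fit over all libraries, tested with limma, and the Benjamini-Hochberg adjusted p covers all 13470 genes that reached 1 FPKM in at least 4 libraries. The added 1 makes these fold changes smaller than the plain ratio for low genes, so the IP mean as a percent of the input mean is printed beside them. Astrocyte markers stood far above input in the IPs: their median gene was at 1746% ± 118 of input in hippocampus and 1533% ± 260 in striatum (mean ± SD, n = 4 animals).

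The IPs held less RNA of most vessel wall genes than the inputs did. In hippocampus, the 4 IP values lay below all 4 input values for 20 of 22 endothelial and 5 of 10 mural genes, and above them for 1 gene of each class. In striatum the same held for 17 endothelial and 5 mural genes below and again 1 of each above. Of 19543 gene labels above 0 in at least 1 hippocampal library, 30.6% lay wholly below and 23.8% wholly above. In striatum these shares were 18.8% and 20.7% of 19346. The 2 exceptions that rose in both regions were Ramp2 among the endothelial genes and Pdgfrb among the mural genes.

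By the limma test, 12 of the 13 endothelial genes that passed the level filter fell in the hippocampal IP and 1 rose, where 35.5% of all tested genes fell and 30.1% rose. The striatal counts were the same, 12 down and 1 up, where 31.4% of all tested genes fell and 33.5% rose. Of the 7 mural genes that passed, 5 fell, 1 rose and Tagln did not pass the test in hippocampus, and 4 fell, 1 rose and Tagln and Higd1b did not pass in striatum. Without the striatal inputs of 971 and 974, all 18 members called in striatum kept their calls. The filter shaped these counts: 9 of the 13 endothelial and 3 of the 7 mural genes reached 1 FPKM in inputs alone, so they could enter the test only by being higher there. Over all listed members, with no filter, the median log2 difference was -0.84 for the endothelial and -0.59 for the mural genes in hippocampus, and -0.81 and -0.69 in striatum, beside -0.105 and 0.01 over all tested genes and 0 over all labels. The filter was not reached by 12 members (Pecam1, Tek, Tie1, Kdr, Eng, Emcn, Sox17, Egfl7, Ctla2a, Acta2, Myh11 and Abcc9).

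**Figure D1:**
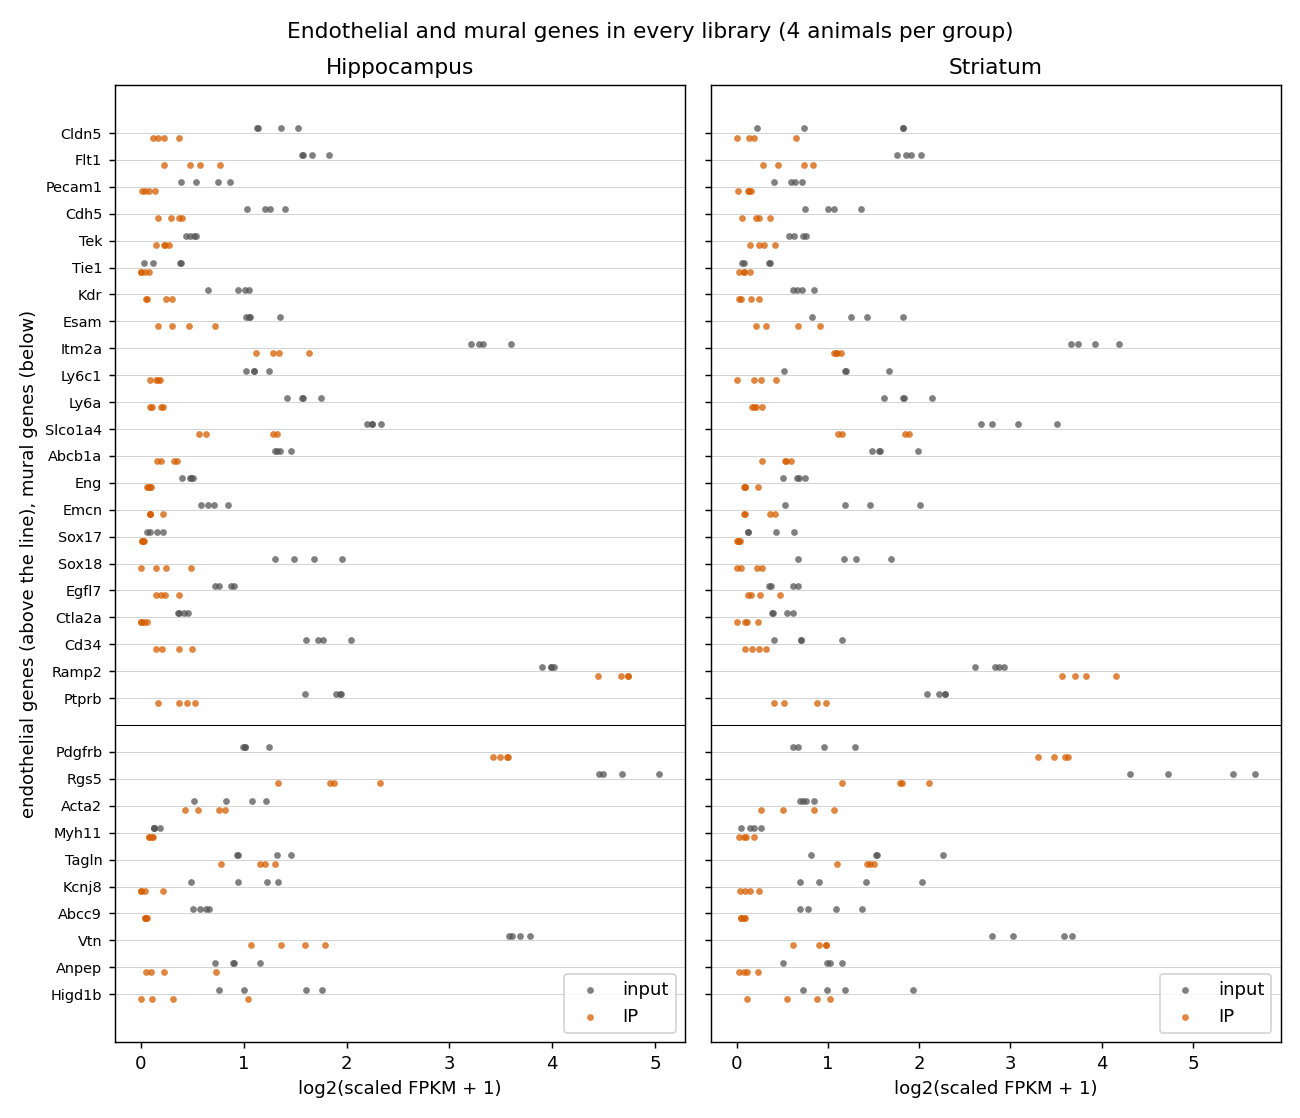
Scaled FPKM + 1 on a log2 axis for each of the 32 genes in every library, hippocampus left and striatum right, with grey points for the 4 inputs and orange points for the 4 IPs of each gene. Input points lie to the right of IP points for most genes, and the order is reversed for Ramp2 and Pdgfrb.

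Among the receptors that carry growth signals into endothelial cells, Flt1, a receptor for VEGF, measured 2.18, 1.96, 1.99 and 2.56 scaled FPKM in the hippocampal inputs of animals 970, 971, 974 and 977, the order used throughout, and 0.165, 0.388, 0.708 and 0.494 in their IPs. Its striatal inputs measured 3.04, 2.62, 2.39 and 2.76 and the IPs 0.374, 0.223, 0.663 and 0.790. Input and IP did not overlap in either region, and Flt1 fell by 1.15 ± 0.14 on the log2 scale in hippocampus (adjusted p = 2.36e-06) and by 1.31 ± 0.14 in striatum (adjusted p = 6.3e-07). Ptprb, the endothelial phosphatase that acts on the angiopoietin receptor, fell by 1.46 ± 0.14 (adjusted p = 1.06e-07) and by 1.52 ± 0.14 (adjusted p = 8.47e-08), leaving 11.8% and 17.6% of its input mean. Kdr, the main VEGF receptor of endothelium, stayed below the filter at 0.898 ± 0.223 in hippocampal input and 0.123 ± 0.1 in IP, or 13.7% of input, and 13.9% in striatum. Tek, the angiopoietin receptor, kept 40.5% and 35.9% of its input mean, and its IP and input values did not overlap in either region. Its partner Tie1 was near the limit of detection, at 0.179 ± 0.147 in hippocampal input and 0.0227 ± 0.0288 in IP, and its groups overlapped in both regions. Eng, a co-receptor for TGF-beta, kept 15.3% and 15.99%.

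Junction and adhesion genes hold endothelial cells together, and those on the list fell or were lower in the IPs. Cldn5, the main tight junction claudin of the brain endothelium, measured 1.19, 1.58, 1.88 and 1.20 in the hippocampal inputs and 0.172, 0.122, 0.0845 and 0.294 in the IPs, with no overlap. Its striatal inputs were uneven, at 2.54, 0.675, 0.17 and 2.53, where the value of animal 974 rests on about 1 fragment, and its IPs were 0, 0.574, 0.0960 and 0.145. These striatal groups overlapped. Cldn5 fell by 1.07 ± 0.28 in hippocampus (adjusted p = 0.00323) and by 0.91 ± 0.28 in striatum (adjusted p = 0.00987), and in striatum it no longer passed when animal 970 (adjusted p = 0.126) or 977 (0.0997) was left out. Cdh5, the cadherin of endothelial adherens junctions, fell by 0.92 ± 0.13 and by 0.82 ± 0.13 (adjusted p = 1.43e-05 and 5.17e-05), to 17.7% and 15.8% of input. Esam, an adhesion molecule of endothelial tight junctions, fell by 0.71 ± 0.20 and by 0.80 ± 0.20 (adjusted p = 0.00534 and 0.0023) and kept 29.2% and 29.6%. Pecam1, the platelet and endothelial adhesion molecule, kept 8.44% and 15.4% of an input mean of 0.568 and 0.512.

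The members that carry substances across the barrier fell in both regions. Slco1a4, an organic anion transporter of the barrier, measured 4.06, 3.60, 3.75 and 3.76 in the hippocampal inputs and 0.479, 0.547, 1.51 and 1.43 in the IPs. In striatum its inputs were 5.94, 7.49, 10.4 and 5.38 and its IPs 1.16, 1.23, 2.71 and 2.59, so the IPs of animals 974 and 977 were above those of 970 and 971 in both regions. It fell by 1.31 ± 0.23 (adjusted p = 9.45e-05) and by 1.51 ± 0.23 (adjusted p = 2.34e-05) and kept 26.2% and 26.4% of input. Abcb1a, the drug efflux pump P-glycoprotein, fell by 1.10 ± 0.12 and by 1.16 ± 0.12 (adjusted p = 7.15e-07 and 4.37e-07) and kept 12.7% and 18.7%. Reads of both transporters can be shared with close paralogs (other Slco1a genes and Abcb1b), so their levels are uncertain.

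Among the surface proteins, Itm2a (chrX:107397099-107403376), a membrane protein abundant in brain endothelium whose upstream sequence is shown above, had the highest striatal input of the endothelial members. It measured 9.04, 8.28, 11.1 and 8.76 in the hippocampal inputs and 1.53, 2.10, 1.43 and 1.17 in the IPs. The striatal inputs were 11.7, 17.2, 14.2 and 12.3 and the IPs 1.22, 1.14, 1.13 and 1.10, a spread of 0.0506 (SD) around a mean of 1.15. Every input stood far above every IP, and Itm2a fell by 2.02 ± 0.14 in hippocampus (adjusted p = 1.78e-09) and by 2.78 ± 0.14 in striatum (adjusted p = 9.21e-11). Cd34 (chr1:194938819-194961279), a sialomucin of endothelial and blood progenitor cells, measured 2.42, 2.29, 2.04 and 3.13 in the hippocampal inputs and 0.108, 0.410, 0.295 and 0.152 in the IPs. Its striatal inputs were far lower, at 0.637, 0.628, 0.332 and 1.23, above IPs of 0.189, 0.0686, 0.255 and 0.122. Cd34 fell by 1.48 ± 0.15 (adjusted p = 2.26e-07) and by 0.54 ± 0.15 (adjusted p = 0.00535), and without animal 977 it did not reach the filter and was not tested. Ly6a, a GPI-anchored surface protein known as Sca-1, fell by 1.43 ± 0.12 and by 1.64 ± 0.12 and kept 5.62% and 6.06% of input, and its relative Ly6c1 fell by 0.97 ± 0.18 and by 0.92 ± 0.18 and kept 9.28% and 13.5%. The Ly6 genes are near copies of one another, as is Ctla2a of Ctla2b, so these values are uncertain. Emcn, a mucin of capillary and venous endothelium, kept 13.9% and 11.4%, and Ctla2a, a cysteine protease inhibitor, 5.20% and 20.1%, both below the filter.

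The SOX transcription factors and the secreted factor of the endothelial list followed the same direction. Sox18 fell by 1.39 ± 0.19 (adjusted p = 7.68e-06) and by 1.07 ± 0.19 (adjusted p = 0.000122), to 8.42% and 7.497% of input. Sox17 measured 0.0980 ± 0.0543 in hippocampal input and 0.0132 ± 0.0061 in IP, too low for the test. Egfl7, a secreted factor that endothelial cells lay down around themselves, kept 23.7% and 46.1% and overlapped between striatal input and IP.

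Ramp2 (chr11:101246028-101259546) was the endothelial member that rose. It pairs with the receptor Calcrl to bind adrenomedullin, a peptide needed for vessel integrity. The hippocampal inputs measured 14.9, 13.96, 14.9 and 15.2 scaled FPKM and the IPs 25.7, 25.6, 20.7 and 24.5. The striatal inputs measured 6.34, 6.60, 6.10 and 5.11 and the IPs 12.01, 16.8, 10.8 and 13.2. Every IP stood above every input of its region, with rises of 0.67 ± 0.13 in hippocampus (adjusted p = 0.00017) and 1.001 ± 0.13 in striatum (adjusted p = 2.79e-06). With FPKM left unscaled, the hippocampal rise was 0.14 and no longer called (adjusted p = 0.213), while the median of all genes moved by -0.41 in that comparison. On GENCODE vM21, 1103 exon bases of Ramp2 (33.4%) also belong to Vps25 on the same strand, whose own mean was 6.68 in hippocampal input and 9.79 in IP, and 4.04 and 9.28 in striatum. Its part in the Ramp2 values was not tested. Calcrl, the partner of Ramp2, did not follow it: its mean was 2.43 ± 0.0893 in hippocampal input and 2.15 ± 0.529 in IP (log2 difference -0.14 ± 0.15, adjusted p = 0.44), and it fell by 1.19 ± 0.15 in striatum (adjusted p = 3.99e-06).

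Among pericyte genes, Pdgfrb, the PDGF-B receptor that recruits pericytes to vessels, moved opposite to the other pericyte genes. It measured 0.995, 1.02, 1.38 and 1.02 in the hippocampal inputs and 10.8, 9.71, 10.9 and 10.2 in the IPs. The striatal inputs were 0.944, 0.591, 0.536 and 1.46 and the IPs 11.4, 11.1, 8.88 and 10.2. The lowest IP stood far above the highest input of its region, and Pdgfrb rose by 2.44 ± 0.14 in hippocampus (adjusted p = 2.64e-10) and by 2.62 ± 0.14 in striatum (adjusted p = 2.07e-10), to 944% and 1174% of input. Of the other pericyte genes, Rgs5, Vtn, Kcnj8, Abcc9 and Anpep were lower than input in all 8 of the same IP libraries.

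Rgs5 (chr1:169655501-169695813), a brake on G protein signalling and a common pericyte marker, was the most abundant member in the inputs. It measured 21.5, 24.6, 31.8 and 20.9 in the hippocampal inputs and 1.52, 4.00, 2.58 and 2.67 in the IPs. In striatum the inputs were 25.5, 50.03, 42.4 and 18.8 and the IPs 1.23, 3.31, 2.45 and 2.51. The IP of animal 970 was the lowest and that of 971 the highest in both regions, while none came near an input. Rgs5 fell by 2.82 ± 0.28 (adjusted p = 1.86e-07) and by 3.32 ± 0.28 (adjusted p = 3.25e-08), to 10.9% and 6.94% of input.

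Vtn (chr11:78499091-78502324) encodes vitronectin, an adhesive matrix protein that brain pericytes make. Its hippocampal inputs measured 11.2, 11.9, 10.96 and 12.7 and its IPs 1.58, 2.46, 1.10 and 2.02. The striatal inputs were 11.02, 7.15, 5.96 and 11.7 and the IPs 0.966, 0.534, 0.978 and 0.868. Vtn fell by 2.21 ± 0.19 (adjusted p = 2.85e-08) and by 2.40 ± 0.19 (adjusted p = 1.32e-08). The 2 subunits of the pericyte potassium channel gated by ATP were among the members left lowest in the IPs relative to input: the pore subunit Kcnj8 kept 4.44% and 6.16%, and the regulatory subunit Abcc9 kept 6.73% and 5.09%. Kcnj8 fell by 0.94 ± 0.24 (adjusted p = 0.00233) and by 1.13 ± 0.24 (adjusted p = 0.00051), and 2 of its 4 hippocampal IPs were listed at 0. Anpep, the surface aminopeptidase CD13, fell by 0.64 ± 0.17 (adjusted p = 0.00298) and by 0.81 ± 0.17 (adjusted p = 0.000511). Higd1b, a pericyte gene of the hypoxia domain family, measured 0.693, 2.40, 1.001 and 2.04 in the hippocampal inputs and 0, 0.0791, 1.06 and 0.244 in the IPs. These groups overlapped, and Higd1b fell by 0.92 ± 0.30 in hippocampus (adjusted p = 0.0133), a call lost without animal 971 (0.0773) or 977 (0.12), while the striatal difference of -0.57 ± 0.30 did not pass (adjusted p = 0.107). It did pass without animal 974 (-0.79, adjusted p = 0.0378) and without scaling (-0.73, adjusted p = 0.0482).

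By the ratio of group means, the 3 contractile genes of smooth muscle were left nearer to input, at 62.9% to 93.0% in hippocampus and 63.2% to 90.9% in striatum. Single animals spread far wider, from 26.5% for Acta2 to 159% for Tagln in hippocampus. In striatum they ran from 15.7% for Myh11 to 231% for Tagln. The striatal inputs of Myh11 rest on about 1.7 to 9.2 fragments. Tagln, which binds actin in contractile fibres, measured 1.496, 0.907, 0.926 and 1.76 in the hippocampal inputs and 1.23, 1.32, 1.47 and 0.713 in the IPs. Its striatal inputs were 3.78, 1.91, 0.761 and 1.89 and its IPs 1.14, 1.83, 1.76 and 1.69, so both regions overlapped. The differences were -0.05 ± 0.23 (adjusted p = 0.857) and -0.16 ± 0.23 (adjusted p = 0.554). Acta2, smooth muscle actin, had a mean of 0.910 ± 0.391 in hippocampal input and 0.572 ± 0.193 in IP, and overlapped in both regions. Myh11, smooth muscle myosin heavy chain, was lower than both, at 0.104 ± 0.025 in hippocampal input and 0.0687 ± 0.0158 in IP, where all 4 IPs lay below the inputs, and it overlapped in striatum. Tagln shares 62.4% of its exon bases with a predicted gene on the other strand, and Acta2 resembles the other actins. Strand use in counting is not given in the sources used here, so the levels of Tagln and Acta2 are uncertain.

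**Figure D2:**
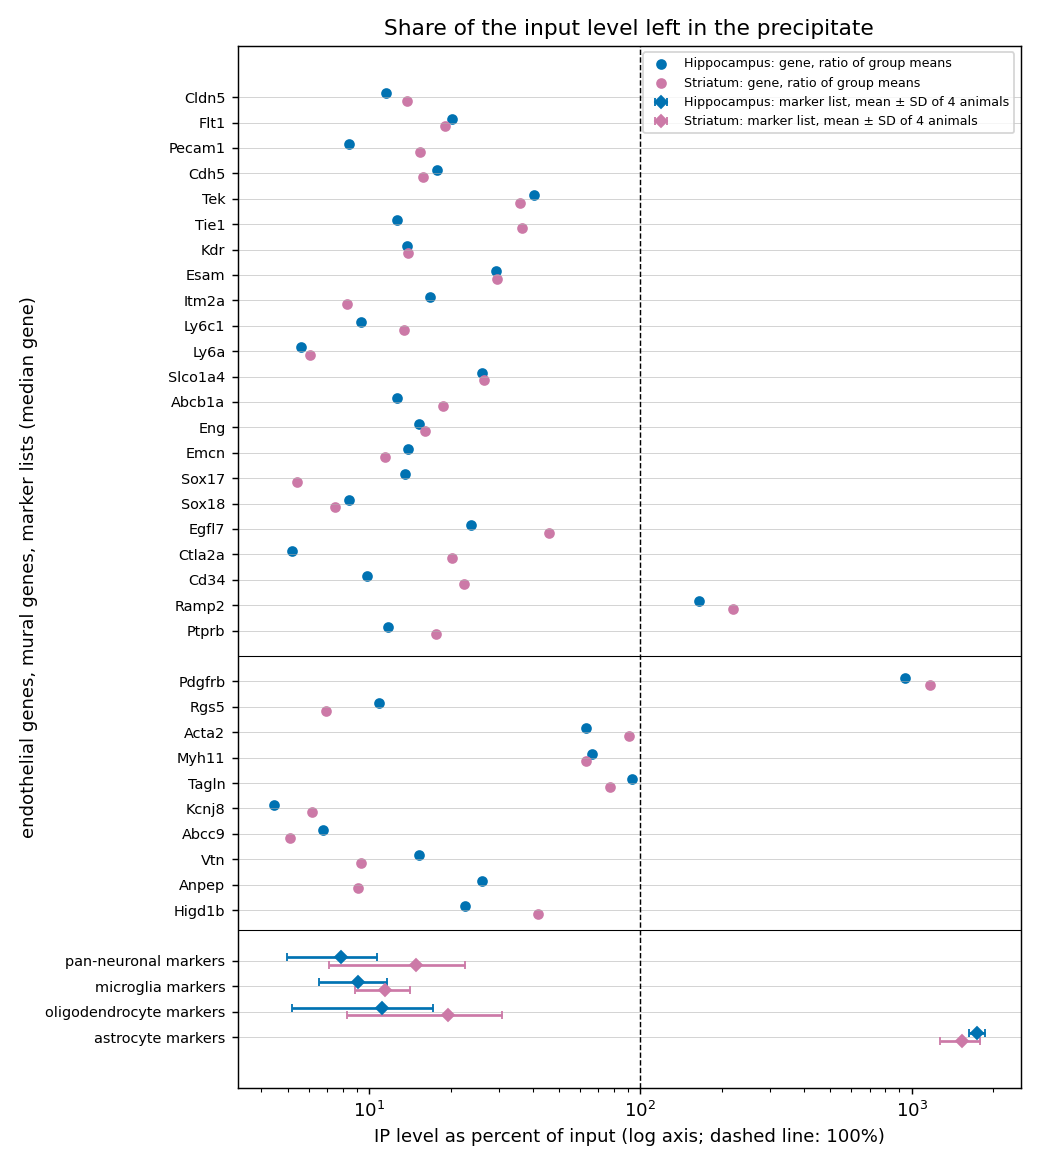
IP level as a percent of input on a log axis, 1 point per gene and region (ratio of the 4-library means), with the median of 4 marker lists below as mean ± SD of 4 animals. The endothelial genes other than Ramp2 lie well below the dashed line at 100%, Acta2, Myh11 and Tagln lie nearer to it, and Ramp2 and Pdgfrb lie above it.

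**Figure D3:**
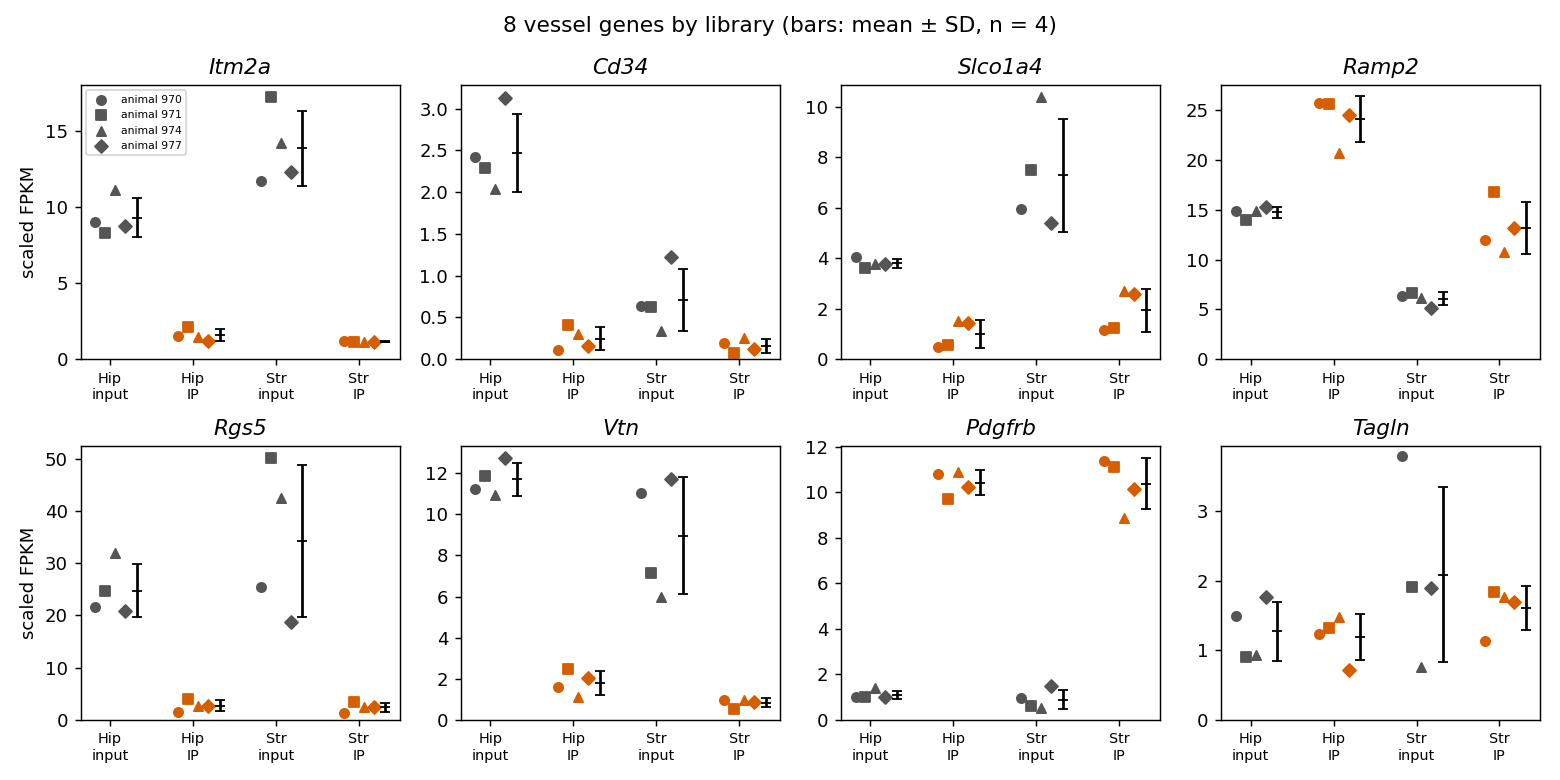
Scaled FPKM of 8 vessel genes in each library, grouped by region and library kind, with marker shapes for the 4 animals and bars for the mean ± SD (n = 4). Grey input points sit above orange IP points for the genes that fell, and below them for Ramp2 and Pdgfrb.

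Set against each other, the median gene of both classes was lower in the IP than in the input in every animal. For the median gene with at least 1 FPKM in the input, the endothelial IP level was 9.18%, 13.2%, 20.2% and 13.7% of the same animal's input in hippocampus and 9.30%, 8.49%, 25.6% and 20.9% in striatum. The mural values were 11.1%, 20.2%, 26.5% and 28.2% in hippocampus and 12.5%, 6.62%, 5.91% and 36.5% in striatum. The class means were 14.1% ± 4.56 and 16.1% ± 8.50 for endothelial genes and 21.5% ± 7.72 and 15.4% ± 14.4 for mural genes (SD, n = 4 animals). The cut at 1 FPKM lets genes in by their input level alone and kept 9 to 15 endothelial and 4 to 8 mural genes per animal. With a cut at 5 FPKM, the hippocampal endothelial mean was 90.6%. It is the midpoint of the only genes that remain, Itm2a and Ramp2 (17.1% and 164.1%, means of 4 animals), which moved opposite ways. The striatal endothelial mean was 27.6% and the hippocampal mural mean 13.1%, also from few genes. Over all listed genes, with no cut, the median log2 difference of the endothelial genes was below that of the mural genes in all 4 hippocampi, by 0.332, 0.492, 0.140 and 0.094, and in 3 of 4 striata. In striatum the endothelial minus mural difference was -0.473, 0.368, -0.196 and -0.159, with a mean of -0.12 ± 0.35 (SD), so the sign did not hold there. Single genes varied widely within both classes. In hippocampus the mural genes ran from 4.44% of input for Kcnj8 to 944% for Pdgfrb, and the endothelial genes from 5.20% for Ctla2a to 163.8% for Ramp2.

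**Figure D4:**
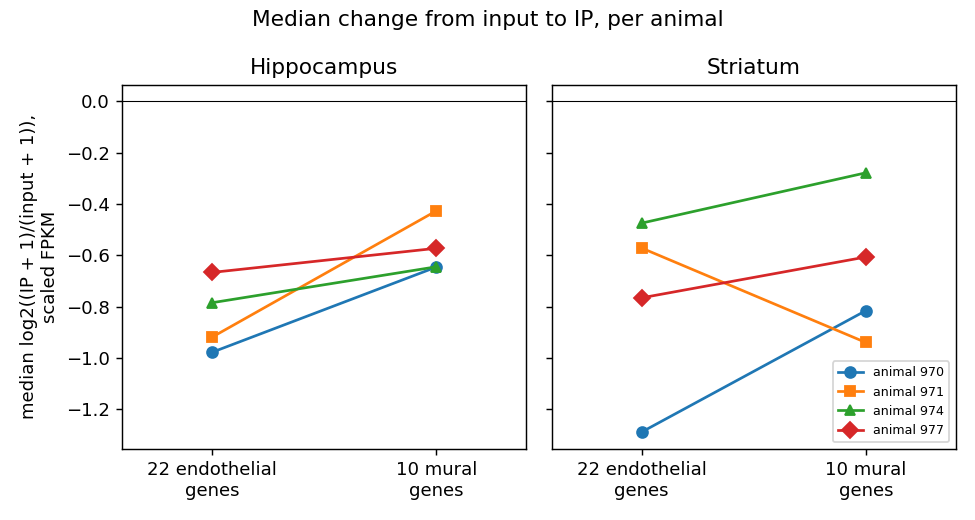
Median log2 ratio of IP + 1 to input + 1 over the 22 endothelial and the 10 mural genes, 1 line per animal, hippocampus left and striatum right. All 8 pairs lie below 0, and the line rises from endothelial to mural in each animal except the striatum of animal 971.

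The median marker of other cell types that should lack the tagged ribosome was also left in the IPs at part of its input level. The median pan-neuronal marker was at 7.84% ± 2.87 of input in hippocampus and 14.9% ± 7.77 in striatum, the median microglial marker at 9.10% ± 2.57 and 11.5% ± 2.62, and the median oligodendrocyte marker at 11.2% ± 5.97 and 19.5% ± 11.3. Animal 974 had the highest neuronal share in both regions, at 11.98% and 25.9%, as it had the highest endothelial share. Its mural share did not follow: it was the lowest in striatum, at 5.91%, and in hippocampus was 26.5%, below the 28.2% of animal 977. The striatal input of animal 974 was also the shallowest library, at 4120000 fragments. Single markers varied: 1 of the 10 oligodendrocyte markers rose in the hippocampal IP, where 30.1% of all tested genes rose. The summed oligodendrocyte markers averaged 210.7 in hippocampal inputs and 91.35 in the IPs, and 481.6 and 112.7 in striatum. The summed microglial markers averaged 110.6 and 29.33 in hippocampus and 161.9 and 31.31 in striatum. The part of such carry-over in the vessel gene levels of the IPs was not tested. Of the 7 red blood cell markers, 6 were at 0 in every input and 4 to 6 in each IP, and their sum stayed at 4.60 scaled FPKM or below. The globin genes among them resemble one another, so a value of 0 does not show that blood RNA was absent. The 1 marker that passed the filter was at 122% ± 45.2 of input in hippocampus and 211% ± 78.5 in striatum. It was called higher in the striatal IP, where 33.5% of all tested genes rose, and was not called in hippocampus. The summed level of the 22 endothelial genes was 47.6 to 51.4 in hippocampal inputs and 28.0 to 30.9 in the IPs, where Ramp2 made up most of it, and it was 47.1 to 53.1 and 16.7 to 22.1 in striatum.

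Between the regions, the inputs compare whole tissue, and in such bulk samples fewer cells of a type and less RNA per cell cannot be told apart. Of the 13 endothelial genes tested, 3 were higher in striatal than in hippocampal input (Itm2a, Slco1a4 and Ptprb) and 2 were lower (Cd34 and Ramp2), where 14.5% of all tested genes were higher and 21.8% lower. None of the 7 mural genes passed. At this level of calling, 3 of 13 and 2 of 13 lie near those backgrounds. Counted over all 32 members, the 4 striatal inputs lay wholly above the hippocampal ones for Tek, Itm2a, Slco1a4, Abcb1a, Eng, Ptprb and Abcc9 and wholly below for Egfl7, Cd34 and Ramp2, where 10.7% and 15.5% of all genes did so. The summed level of the 22 endothelial genes was 50.2 ± 1.79 in hippocampal and 51.2 ± 2.81 in striatal inputs. These sums hold opposite moves of a few abundant genes and do not measure endothelial content. From hippocampal to striatal input, the mean of Ramp2 went from 14.7 to 6.04, that of Itm2a from 9.31 to 13.9 and that of Slco1a4 from 3.79 to 7.30. The summed pan-neuronal markers were 3232 to 3343 in hippocampal and 1811 to 2152 in striatal inputs, and the oligodendrocyte markers 196 to 228 and 439 to 514. The part of the neuronal and oligodendrocyte RNA in these regional differences was not tested.

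Itm2a rose from a mean of 9.31 ± 1.26 in hippocampal to 13.9 ± 2.48 in striatal input (log2 0.52 ± 0.14, adjusted p = 0.00748). Slco1a4 rose from 3.79 ± 0.192 to 7.30 ± 2.24 (0.76 ± 0.23, adjusted p = 0.0175) and Ptprb from 2.61 ± 0.396 to 3.65 ± 0.301 (0.37 ± 0.14, adjusted p = 0.0483). Cd34 fell from 2.47 ± 0.468 to 0.707 ± 0.376 (-1.04 ± 0.15, adjusted p = 5.15e-05) and Ramp2 from 14.7 ± 0.549 to 6.04 ± 0.651 (-1.17 ± 0.13, adjusted p = 1.82e-06). Without the 2 shallow striatal inputs of animals 971 and 974, Itm2a was at 0.34 (adjusted p = 0.0904), Slco1a4 at 0.47 (0.205) and Ptprb at 0.30 (0.233), none of them called, while Cd34 and Ramp2 kept their calls. In that setting 3 other members passed: Ly6a at 0.40 (adjusted p = 0.0316), Tagln at 0.73 (0.0252) and Cldn5 at 0.53 (0.0375), the last of which had been at -0.14 (0.73) with all libraries. Leaving out animal 971 alone ended the same 3 calls (0.0809, 0.0985 and 0.254), leaving out 974 ended those of Slco1a4 (0.0694) and Ptprb (0.104), and without 970 (0.0681) or 977 (0.0709) Ptprb was not called either. Ptprb also missed the threshold without scaling (0.0835), without the filter (0.0559), with only the inputs in the fit (0.0568) and with a pseudocount of 0.1 (0.238), as did Slco1a4 with that pseudocount (0.0664), and Cd34 was not tested without 977.

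Between the IPs, Ramp2 was the only member called. Its striatal IP mean of 13.2 ± 2.60 was below the hippocampal 24.1 ± 2.35 (-0.84 ± 0.13, adjusted p = 0.000218), where 7.18% of all tested genes were higher in striatum and 5.38% lower. Of the 10 astrocyte markers, 6 were also lower in the striatal IPs, with summed levels of 6563 to 12010 against 10540 to 14420 in hippocampus, and their part in the Ramp2 difference was not tested. Ramp2 and Vtn lay wholly lower in the striatal IPs, as did 7.15% of 19457 gene labels, and no member lay wholly higher, where 8.83% did. Vtn was at 0.836 ± 0.208 against 1.79 ± 0.584 (-0.59 ± 0.19, adjusted p = 0.0546), and passed with animal as a block (adjusted p = 0.0414), with a pseudocount of 0.1 (0.0168), without animal 974 (0.017), and without the striatal inputs of 971 and 974 (0.00866). Over all listed members the median regional difference was 0.05 for endothelial and 0.02 for mural genes in the IPs, and 0.13 and 0.01 in the inputs. Pdgfrb was level between the IPs, at 10.4 ± 0.546 and 10.4 ± 1.12 (log2 difference -0.01 ± 0.14, adjusted p = 0.984).

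The test of whether the step from input to IP differed between the regions called 2 members, where 8.47% of all tested genes had a larger value in striatum and 5.33% a smaller one. Itm2a fell further in striatum, with a difference of -0.76 ± 0.19 (adjusted p = 0.0145), from inputs of 9.31 and 13.9 to IPs of 1.56 and 1.15. Cd34 fell less in striatum, with a difference of 0.94 ± 0.21 (adjusted p = 0.00703), from inputs of 2.47 and 0.707 to IPs of 0.241 and 0.159. Its striatal input mean lay below the added 1, which limits how far Cd34 could fall there on this log2 scale. By group means, Cd34 kept 9.77% of input in hippocampus and 22.4% in striatum. Neither Itm2a nor Cd34 passed when animal 970 was left out (adjusted p = 0.0722 for Itm2a and 0.101 for Cd34) or 971 (0.182 and 0.054). Cd34 also did not pass with a pseudocount of 0.1 (0.119), and without 977 it did not reach the filter. Without the striatal inputs of 971 and 974 both passed, Itm2a at -0.58 (adjusted p = 0.0476) and Cd34 at 0.76 (adjusted p = 0.0287).

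Other genes of the vessel wall, from lists of the same cell classes, are given next, each count beside the 30.1% of all tested genes that rose and 35.5% that fell in hippocampus, and the 33.5% and 31.4% in striatum. Of 29 other endothelial genes in the tables, 15 passed the filter, which a gene can enter by its input level alone. Of these, 11 fell and 2 rose in the hippocampal IP, and 10 fell and 2 rose in the striatal IP. Ly6e, another Ly6 surface protein, fell by 3.03 ± 0.16 in hippocampus and by 1.44 ± 0.16 in striatum, and Eltd1, an adhesion receptor of growing vessels, fell by 1.22 ± 0.14 and by 1.87 ± 0.14. Car4, a carbonic anhydrase on the capillary surface, fell from 19.0 ± 1.16 to 2.22 ± 1.12 in hippocampus and was already at 1.21 ± 0.755 in striatal input. Sox7, a relative of Sox17 and Sox18, rose instead, from 0.542 ± 0.208 to 4.96 ± 0.625 in hippocampus (1.96 ± 0.15, adjusted p = 5.33e-09) and from 0.693 ± 0.287 to 2.59 ± 0.395 in striatum (1.09 ± 0.15, adjusted p = 5.72e-06).

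Of 25 other mural genes, 11 passed, of which 4 rose and 5 fell in hippocampus and 3 rose and 6 fell in striatum, shares near those of all tested genes in hippocampus. Ednra, the endothelin receptor of smooth muscle, rose by 2.68 ± 0.25 and by 2.19 ± 0.25. Notch3, the Notch receptor of mural cells, rose by 1.26 ± 0.12 and by 1.13 ± 0.12, and was higher in striatum than in hippocampus in both the inputs (1.13 ± 0.12, adjusted p = 2.08e-06) and the IPs (1.003 ± 0.12, adjusted p = 3.18e-05). Rgs4, a relative of Rgs5 that neurons also express, fell by 4.04 ± 0.21 and by 4.37 ± 0.21. Of 14 perivascular fibroblast genes, 10 passed and 7 of them fell in each region, among them the matrix genes Dcn and Mgp, which fell by 3.10 ± 0.15 and by 2.27 ± 0.18 in hippocampus. Igfbp2, a binding protein of insulin-like growth factors, rose by 3.44 ± 0.25 and by 2.81 ± 0.25.

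Further genes of the barrier are ones that endothelial cells share with other cells. Of 16 transporters, 13 passed, of which 9 rose in each region and 3 fell in hippocampus and 4 in striatum, where 30.1% and 33.5% of all tested genes rose. Mfsd2a, the lipid carrier that keeps endothelial vesicle transport low, rose from 7.67 ± 1.62 to 92.9 ± 20.3 in hippocampus and from 6.63 ± 1.30 to 98.0 ± 35.2 in striatum. Slco1c1, a thyroid hormone carrier of the same family as Slco1a4, rose by 3.00 ± 0.23 and by 2.75 ± 0.23, whereas Abcg2, a drug efflux pump like Abcb1a, fell by 1.41 ± 0.21 and by 1.11 ± 0.21. Of 12 junction genes, 9 passed and 7 of them rose in each region, led by Ctnna1, which ties cadherins to actin, at 3.17 ± 0.12 and 2.004 ± 0.12, while Ocln, the tight junction protein occludin, fell by 1.18 ± 0.14 and by 0.79 ± 0.14. Of 12 basement membrane genes, 9 passed: 4 rose, 1 fell and 4 did not pass the test in hippocampus, and 6 rose and 2 fell in striatum. The laminin chains Lamb2 and Lama2 rose by 3.52 ± 0.17 and 3.05 ± 0.14 in hippocampus, and Lamb1 fell by 1.25 ± 0.17.

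Of 42 ligands and receptors that signal at the vessel, 34 passed: 21 rose and 6 fell in hippocampus, where 30.1% of all tested genes rose and 35.5% fell, and 22 rose and 5 fell in striatum, where 33.5% rose and 31.4% fell. S1pr1, a sphingosine phosphate receptor known in both endothelium and astrocytes, rose from 28.1 ± 6.47 to 425 ± 41.5 in hippocampus and from 30.04 ± 5.54 to 434 ± 94.1 in striatum. Pdgfb, the ligand of Pdgfrb, fell by 1.34 ± 0.16 (adjusted p = 1.61e-06) and by 0.57 ± 0.16 (adjusted p = 0.00543) in the libraries in which its receptor rose. Angpt1, the activating ligand of Tek, rose from 0.715 ± 0.1502 to 6.73 ± 1.03 in hippocampus (2.166 ± 0.15, adjusted p = 2.43e-09) and from 0.122 ± 0.0853 to 0.670 ± 0.386 in striatum (0.55 ± 0.15, adjusted p = 0.00457). The striatal IPs thus held less Angpt1 than the hippocampal IPs (-2.23 ± 0.15, adjusted p = 6.33e-08). On this log2 scale the rise also differed between the regions (-1.62 ± 0.21, adjusted p = 8.88e-05). Both striatal means lay below the added 1, which makes the striatal rise smaller than its plain ratio. The size of the regional difference therefore depends on the added 1.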

How the data were processed

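RNA was measured by paired-end sequencing in 16 libraries, made with the Nugen Ovation RNA-Seq System V2 kit per the labels' protocols. Base calls were made with bcl2fastq 2.17, and STAR, HTSeq and the build mm10 are named, per the submitters' processing notes; their settings are not given in the sources used here. The authors deposited 1 table of FPKM per library. The unit was checked by multiplying FPKM by GENCODE vM21 exon length, which summed to 1.115 to 1.199 of the expected total, and the depth per library was estimated from the FPKM steps. Of 24060 labels, 22776 (94.7%) matched GENCODE vM21, and 27 had become dates.

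FPKM were divided by trimmed-mean factors (30% of log ratios and 5% of levels trimmed), and log2(scaled FPKM + 1) of the 13470 genes that reached 1 FPKM in 4 or more libraries was fitted in limma 3.58.1 (R 4.3.3). The 4 groups entered 1 fit with 12 residual degrees of freedom and trended, robust variance, and calls were made at an adjusted p under 0.05 (Benjamini-Hochberg). The script was tested on simulated data. Each animal gave all 4 libraries, so its number pairs them: deviations of same-animal libraries correlated at 0.085 to 0.172 between hippocampal input and IP, -0.008 to 0.085 in striatum, 0.308 to 0.532 between IPs and 0.053 to 0.319 between inputs. The 32 members and the other lists were chosen with earlier results of these data known, so no list was tested. From the other lists, genes were named by the largest called changes shared by both regions, up to 3 per direction, or by the smallest p in a regional comparison. Alternatives were a pseudocount of 0.1, no scaling, no filter, animal as a block, only the groups compared, and leaving out animals or the striatal inputs of 971 and 974. Promoters came from RefSeq (GRCm38.p6), where 20 of the 32 members matched.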

Additional observations from a re-analysis of the deposited data

Results flagged for a closer look

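In groups of 4 libraries, 7 of 128 had 1 library far from the other 3, a share of 5.47% where chance gives about 1 in 20. Esam was high in the hippocampal input of animal 970, at 1.55 scaled FPKM with the nearest at 1.09, and Myh11 in the same library at 0.141 (nearest 0.0929). Pdgfrb was high in the hippocampal input of animal 974, at 1.38 (nearest 1.02), and Ptprb was low in that of animal 971, at 2.02 (nearest 2.73). Abcb1a was high in the striatal input of animal 974, at 2.97 (nearest 1.97), and Eng in its striatal IP at 0.177 (nearest 0.0692). Emcn was high in the hippocampal IP of animal 971, at 0.162 (nearest 0.0638).

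The step from input to IP differed between the regions for 2 genes by limma's test of the difference: Itm2a, with a striatal minus hippocampal value of -0.76, and Cd34, with 0.94. The striatal input mean of Cd34 (0.707) lay below the added 1, which limits its striatal fall on this scale. Its call was lost with a pseudocount of 0.1.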

How the results depend on the processing

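The fit with animal as a replicate block kept every call of the members and added 1, Vtn between the IPs, where the count of members called then was 2 in place of 1. That count was also 2 with a pseudocount of 0.1 and without the striatal inputs of 971 and 974, and 1 to 2 when each animal was left out. Without the filter, the members called lower in striatal IP rose from 16 to 25, because members below the filter were then tested. Between the inputs, the 5 members called became 3 with a pseudocount of 0.1 and 2 to 4 without 1 animal. For the difference between regions, the 2 became 1 with a pseudocount of 0.1 and 0 to 2 without 1 animal. Counting only genes with at least 5 FPKM in the input, the endothelial IP level became 90.6% of input in hippocampus (14.1% with 1 FPKM) and 27.6% in striatum (16.1%), and the mural one 13.1% in hippocampus (21.5%), because few members then remain. The 90.6% is the midpoint of Itm2a, at 17.1%, and Ramp2, at 164.1%, and describes neither gene. Without scaling, the share of calls that were higher went from 45.9% to 26% in hippocampal IP against input, from 51.6% to 36.1% in striatum, from 57.2% to 69.4% between the IPs and from 61.4% to 72.2% for the difference between regions, and the difference of Ramp2 between regions was called at 0.55 (adjusted p = 0.015), as was the fall of Higd1b in striatal IP (adjusted p = 0.0482). No called result changed direction under these alternatives. Values under 1 FPKM rest on few fragments in the shallow striatal inputs, which limits the precision of single values there.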
